A study of Mus musculus with 24 samples.

Results

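The clustered protocadherin genes of the mouse lie in 3 neighbouring arrays on chromosome 18, and they are described here through the broad chromatin immunoprecipitation (ChIP-seq) peaks that fall on them. The members are all peaks of 6 deposited lists that overlap, by at least 1 bp and in mm10 coordinates, the alpha array (36.92 to 37.19 Mb), the beta array (37.26 to 37.6 Mb) or the gamma array (37.66 to 37.85 Mb). They number 705 of 1811308 peaks, of which 203 lie in the alpha, 259 in the beta and 243 in the gamma array. The arrays hold 58 annotated clustered protocadherin genes, with 14 in alpha, 22 in beta and 22 in gamma.

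Clustered protocadherins are cell-surface proteins of the cadherin family that are best known in neurons, where each cell uses its own small selection of them and matching selections on touching membranes serve self-recognition. Each alpha and gamma variable exon has its own promoter and is spliced to constant exons at the far end of its array, whereas a beta gene is a single exon without a constant part. Promoter choice in the arrays is known to involve CTCF, cohesin, DNA methylation and distant enhancers. NELF and DSIF are the factors that hold RNA polymerase II in a paused state shortly after it leaves a start site.

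The series asks how polymerase pausing bears on transitions between pluripotent states. Its 24 samples come from the E14 mouse embryonic stem cell line, and some are titled naive or EpiLC. All carry the genotype labelled Nelfb deg, in which the NELF subunit NELFB bears an HA tag and a degron that the compound dTAG-13 acts on. The 6 libraries analysed are labelled Control and come from cells in serum and LIF without dTAG-13: 2 of NELFB:HA (precipitated through the HA tag), 2 of NELFE (a second NELF subunit) and 2 of SPT5 (a DSIF subunit). The other 18 samples are not analysed here, among them those given 500 nM dTAG-13 for 30 min and those titled naive or EpiLC. Nothing is therefore said on the loss of NELFB or on those states. The labels do not say whether the cells are 1 clone or whether replicates came from separate cultures, so p-values measure only the spread between these libraries. The cells were profiled in bulk, and a site bound in few cells cannot be told apart from a site bound weakly in all of them.

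The lists differed in length, which bears on every count below. The NELFB:HA lists held 343503 and 447756 peaks from 41312333 and 29656999 filtered tags, the NELFE lists 203679 and 217115 peaks from 40260648 and 28944909 tags, and the SPT5 lists 462153 and 137102 peaks from 27324697 and 62312558 tags. The most deeply sequenced library, the second of SPT5, thus had the shortest list. The SPT5 libraries had longer tags than the other 4 and an input of their own, so for SPT5 the antibody cannot be told apart from tag length and input. The 4 NELF libraries also had separate inputs, of 38240408 and 38427034 filtered tags for NELFB:HA and 32566070 and 26160905 for NELFE. Between NELFB:HA and NELFE the antibody thus cannot be told apart from input either. Strength is therefore given as the rank of a peak by −log10 p within its own list, or as a rank percentile in which 100 is the strongest and 50 the median peak of the list. Fold enrichment over input and q-values are the authors' own values for each peak. A peak with a q-value of 0.01 or less is named a called peak. Called peaks made up 2.97% and 1.85% of the NELFB:HA lists, 5.52% and 5.42% of the NELFE lists and 1.51% and 6.08% of the SPT5 lists.

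The gamma array held more peaks per Mb than the genome and covered more of its length in all 6 libraries, whereas the alpha and beta arrays were close to the genome. The alpha array held 41 and 44 peaks in the NELFB:HA libraries, 22 and 22 in NELFE and 57 and 17 in SPT5. The beta array held 47 and 68, 28 and 33, and 65 and 18 peaks in the same order. The gamma array, which is the shortest at 190 kb against 270 kb for alpha and 340 kb for beta, held 48 and 39, 38 and 42, and 46 and 30 peaks. Peak numbers in alpha and beta moved with the length of the list, while those in gamma stayed within 30 to 48.

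Peaks per Mb in the gamma array were 1.95 and 1.22 times the density over all chromosomes in NELFB:HA, 2.61 and 2.70 times in NELFE and 1.39 and 3.06 times in SPT5. On the log2 scale this ratio was 1.03 ± 0.55 (SD, n = 6 libraries), above 0 in 6 of 6 libraries (exact two-sided sign-flip permutation test, p = 0.031, the smallest that 6 libraries allow, adjusted p = 0.0469 over 3 arrays). The lowest ratios came from the 2 longest lists, the second NELFB:HA and the first SPT5 library. For alpha the ratios were 1.17 and 0.968, 1.06 and 0.997, and 1.22 and 1.22, with a log2 mean of 0.14 ± 0.15 that was not past the threshold (4 of 6 libraries above 0, exact permutation test, adjusted p = 0.125). For beta they were 1.07 and 1.19, 1.07 and 1.19, and 1.10 and 1.03. The beta log2 mean was 0.15 ± 0.086, small but above 0 in 6 of 6 libraries (exact permutation test, adjusted p = 0.0469).

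The comparison depended on the background chosen for alpha and beta. The 1 Mb on each outer side of the 3 arrays is rich in peaks, and against it the alpha array was lower in 6 of 6 libraries, with a log2 mean of -0.53 ± 0.33 (exact permutation test, adjusted p = 0.0469). The beta array was also lower there, at -0.53 ± 0.37 (exact permutation test, adjusted p = 0.0469, 0 of 6 libraries above 0). The gamma array stayed higher on average at 0.35 ± 0.25, but its second NELFB:HA library was at -0.04 and the test was not passed (exact permutation test, adjusted p = 0.0625). In the 100000 strongest peaks of each list, gamma was at 1.51 against all chromosomes with an adjusted p of 0.0938 by the exact permutation test, and beta at 0.23 with an adjusted p of 0.234.

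**Figure D1:**
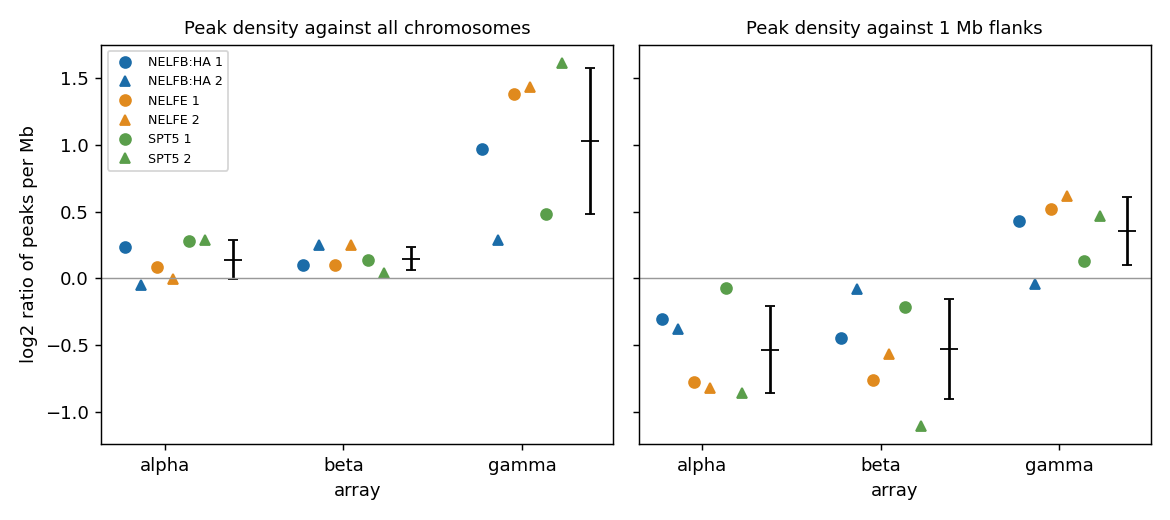
Peak density in the alpha, beta and gamma arrays, as the log2 ratio of peaks per Mb to all chromosomes (left) and to the 1 Mb flanks (right); each point is 1 of 6 libraries and the bar with whiskers is the mean ± SD. The gamma points all lie above 0 on the left, and the alpha and beta points all lie below 0 on the right.

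Set against each other within a library, the gamma array had a higher density and covered share than alpha and beta in all 6 libraries, and alpha and beta did not differ past the threshold. Peaks covered 16.5% and 19.8% of the alpha array in NELFB:HA, 5.41% and 8.80% in NELFE and 22.9% and 3.81% in SPT5. They covered 16.4% and 25.6%, 6.88% and 7.37%, and 19.2% and 3.42% of the beta array. In the gamma array the covered share rose to 30.7% and 35.1%, 18.5% and 23.2%, and 39.3% and 20.7%. All chromosomes together were covered to 12.4% ± 6.57 (SD, n = 6), near the alpha mean of 12.9% and the beta mean of 13.1%, while the gamma mean was 27.9%.

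The covered share of alpha minus gamma was -15.0 ± 1.44 percentage points and that of beta minus gamma -14.8 ± 3.84, with gamma higher in 6 of 6 libraries for both. Each had the smallest p that the exact sign-flip permutation test allows, 0.031, and an adjusted p of 0.0703 over the 9 tests between arrays, which does not pass 0.05. The density differences, -87.8 ± 42.8 peaks per Mb for alpha minus gamma and -86.2 ± 47.7 for beta minus gamma, had the same p and adjusted p by the exact permutation test. Alpha minus beta was -0.27 ± 3.23 percentage points of covered length and -1.65 ± 21.4 peaks per Mb (exact permutation test, adjusted p = 0.844 for both).

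Median strength by rank gave no such order. The median rank percentile of the alpha peaks was 53.2 and 38.3 in NELFB:HA, 60.6 and 56.5 in NELFE and 41.4 and 37.0 in SPT5. For beta the medians were 42.5 and 54.4, 58.3 and 60.1, and 50.7 and 49.99. For gamma they were 69.99 and 70.3, 47.7 and 53.8, and 77.1 and 63.7. The gamma median was the highest of the 3 arrays in both NELFB:HA and both SPT5 libraries and the lowest in both NELFE libraries. None of the 3 differences between arrays in median percentile passed the exact permutation test (adjusted p = 0.225 to 0.402).

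**Figure D2:**
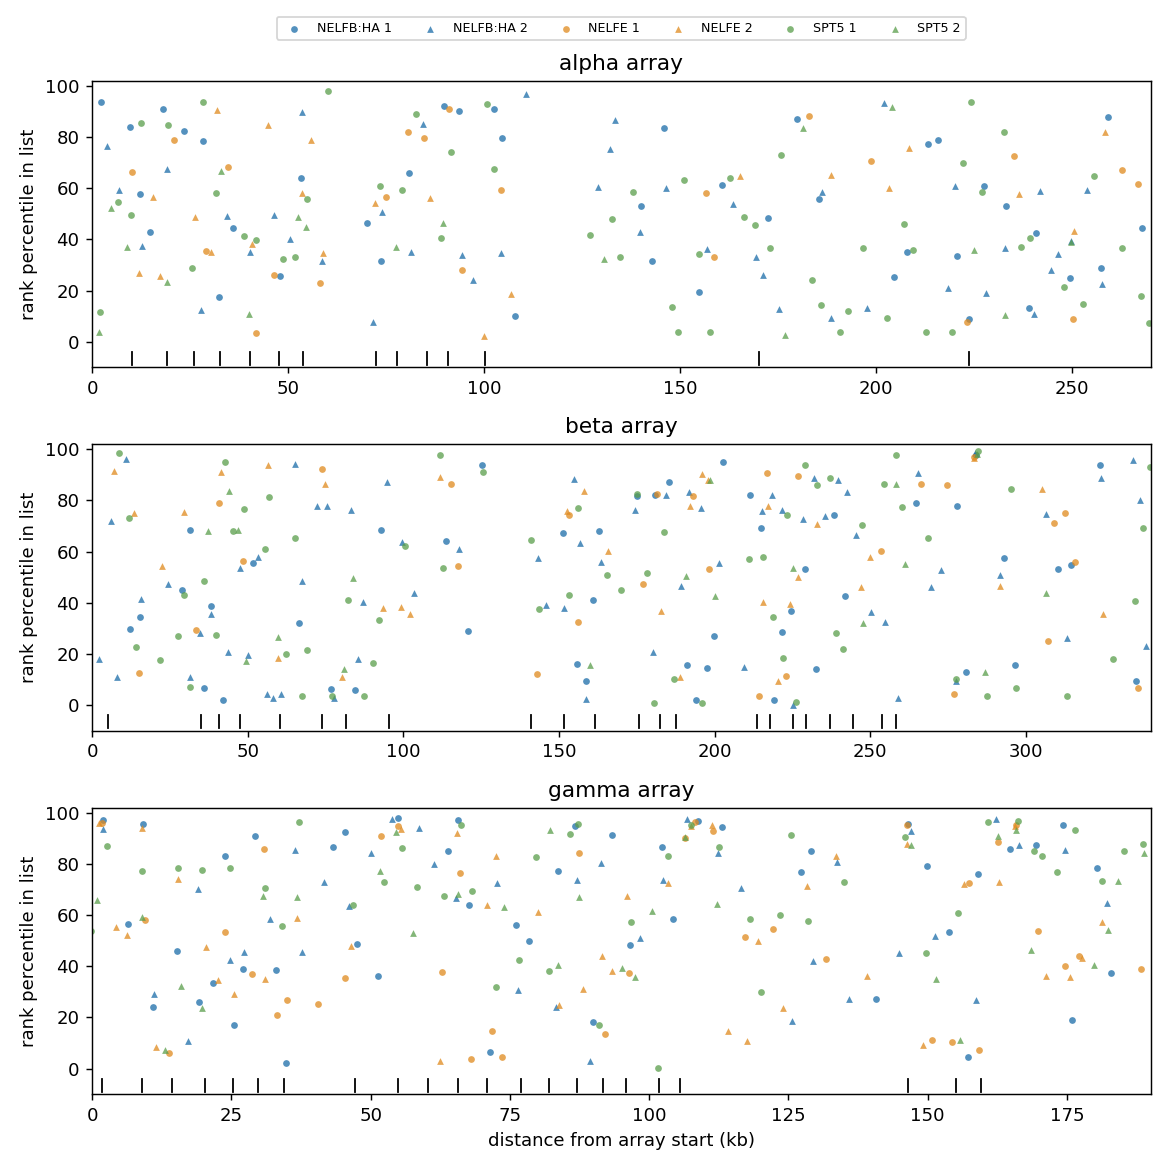
Rank percentile within its list (100 strongest) of each of the 705 peaks against the distance of the peak from the start of its array in kb; colours are antibodies, circles replicate 1, triangles replicate 2, and black ticks mark gene starts. The alpha and beta points fill the whole range, with 1 cluster of all 6 libraries near the top right of the beta panel.

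No array contained a peak among the 1000 strongest of any list. Among the 10000 strongest of each list there was 1 alpha peak, 7 beta peaks and 7 gamma peaks, counted over the 6 libraries. Those 10000 are taken from lists of 137102 to 462153 peaks, so the counts by themselves show no enrichment. The strongest 10% of each list held 4.55% to 12.2% of alpha peaks, 5.56% to 15.2% of beta peaks and 15.4% to 25.0% of gamma peaks. These shares were not tested. The alpha array had no called peak in any library among its 203 peaks, beside called shares of 1.51% to 6.08% of the whole lists. Its strongest peaks ranked 22115 and 14172 in NELFB:HA, 18270 and 20631 in NELFE and 9152 and 11306 in SPT5, with q-values from 0.0753 to 0.576. Only the strongest NELFE peak of library 1 lay within 500 bp of a gene start, that of Pcdha11.

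The beta array had exactly 1 called peak in each of the 6 libraries, 6 in all. It was 1 of 47 and 68 peaks in NELFB:HA, of 28 and 33 in NELFE and of 65 and 18 in SPT5. The called shares of the whole lists were 2.97% and 1.85%, 5.52% and 5.42%, and 1.51% and 6.08% in the same order. By these shares beta was not rich in called peaks. The 6 called peaks overlapped at a single site outside the beta genes. The merged site, chr18:37542211-37545407, is 3197 bp long, and 493 bp of it (chr18:37543590-37544082) lie in the peak of every library. Fold enrichment there was 3.19 and 3.20 in NELFB:HA, 5.22 and 4.36 in NELFE and 3.69 and 3.90 in SPT5. The peak ranked 7238 and 6118, 5756 and 7054, and 3340 and 2707 in the same lists. Its q-values ran from 3.53e-13 in the first NELFE library to 5.21e-05 in the second NELFB:HA library. The site was therefore the strongest of its array in all 6 libraries, with a mean rank percentile of 98.0.

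The strong beta site lies 20.8 kb past the end of Pcdhb22, the last beta gene, and 92.0 kb before Slc25a2, a mitochondrial carrier gene between the beta and gamma arrays. In the annotation only 3 predicted gene models span it, Gm37013, Gm38666 and Gm38667, each of which runs from within the alpha array to the end of the gamma array. No annotated gene of the arrays starts within it, and the nearest array start, that of Pcdhb22, is 23858 bp away. Over the 78.6 kb of the array past Pcdhb22, the site included, peaks covered 10.2% ± 6.02 (SD, n = 6), beside 14.2% ± 9.52 between Pcdhb1 and Pcdhb22.

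The gamma array had 12 called peaks, but in 3 libraries only. They were 3 of 48 peaks in the first NELFB:HA library, 5 of 38 in the first NELFE library and 4 of 42 in the second. The called shares of those whole lists were 2.97%, 5.52% and 5.42%. Neither SPT5 library (46 and 30 peaks) nor the second NELFB:HA library (39 peaks) had a called gamma peak. Of their whole lists 1.51%, 6.08% and 1.85% were called. The gamma shares were not tested against the lists. Of these 12 peaks, 8 lay within 500 bp of a gene start, at Pcdhga1, Pcdhga7, Pcdhga8, Pcdhga12 and Pcdhgc3. Pcdhga genes are gamma A-type members, and Pcdhgc3 is the first of the C-type members at the end of the array, which are known for broader use than the other variable exons.

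**Figure D3:**
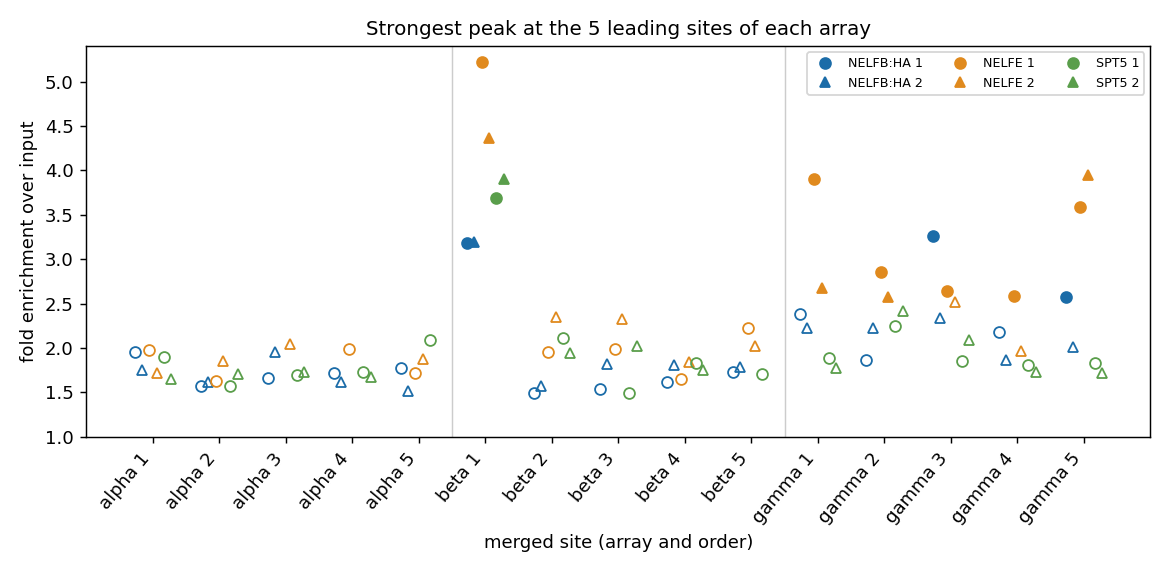
Fold enrichment over input (linear axis from 1) of the strongest peak in each library at the 5 leading merged sites of each array, ordered by the number of libraries with a peak and then by mean rank percentile; filled symbols are called peaks. Beta site 1 is filled in all 6 libraries, all alpha symbols are open, and gamma sites 1 to 5 hold the starts of Pcdhga12, Pcdhgc5, Pcdhga7, Pcdhgc3 and Pcdhga1.

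Gene starts in the gamma array carried peaks more often than those of alpha or beta. A peak lay within 500 bp of the start of 19 and 15 of the 22 gamma genes in NELFB:HA, 11 and 15 in NELFE and 20 and 12 in SPT5. For the 14 alpha genes the counts were 6 and 7, 4 and 6, and 12 and 4, and for the 22 beta genes 7 and 14, 5 and 5, and 13 and 5. Of 32817 annotated start sites on the other chromosomes, 58.9% and 64% had such a peak in NELFB:HA, 51.3% and 52.6% in NELFE and 64.2% and 44.6% in SPT5. The mean over the 6 libraries was 46.4% of alpha genes, 37.1% of beta genes and 69.7% of gamma genes, beside 55.9% of all start sites. These means hide exceptions, as the gamma share was below that of all start sites in the first NELFE library (50% against 51.3%) and the alpha share above it in the first SPT5 library (85.7% against 64.2%). A peak that reached neighbouring starts was counted for each of them, as at Pcdhgb2 and Pcdhga5 in the second NELFB:HA library. The shares were not tested. Windows of 1001 bp tiled over the genome held a peak in 10.8% (second SPT5 library) to 37.6% (second NELFB:HA library) of cases.

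The peaks at the array starts were weak beside those at other genes. All start sites with a peak had a median rank percentile of 94.5 to 97.2, depending on the library. The medians over array genes with a peak ran from 30.3 to 73.0 in alpha, from 39.7 to 67.3 in beta and from 58.0 to 77.3 in gamma. A called peak lay within 500 bp of 30.6% and 26.4% of all start sites in NELFB:HA, 31.5% and 32.3% in NELFE and 22.8% and 26.1% in SPT5. In the arrays it did so at 0 alpha and 0 beta genes in any library, and at 3, 3 and 2 of 22 gamma genes in the first NELFB:HA and the first and second NELFE libraries. The share of gamma genes with any peak fell to 37.1% in the 100000 strongest peaks of each list, then below the 43.0% of all start sites.

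**Figure D4:**
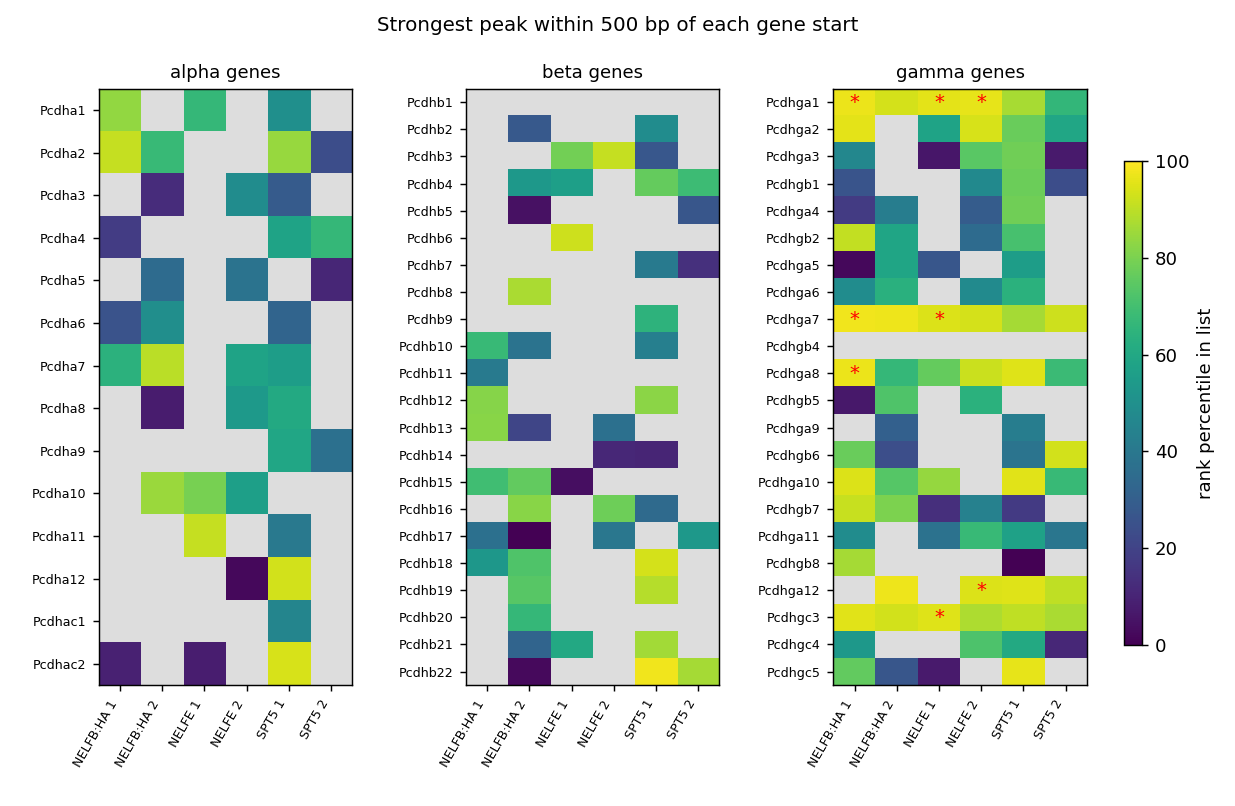
Rank percentile (colour, 100 strongest) of the strongest peak within 500 bp of each gene start, for 58 genes in rows and 6 libraries in columns; grey means no peak and a red star a called peak. Starred cells occur only in the gamma panel, at 5 genes, and Pcdhb1 and Pcdhgb4 are grey throughout.

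Among the A-type gamma genes, Pcdhga1, Pcdhga7 and Pcdhga8 had a peak at their start in all 6 libraries, as did Pcdhgc3, and no alpha or beta gene did. Of all start sites 35.5% had a peak in all 6 libraries, a larger share than the 4 of 22 gamma genes. At Pcdhga7 (start at 37714834) the fold was 3.26 and 2.34 in NELFB:HA, 2.64 and 2.51 in NELFE and 1.85 and 2.09 in SPT5. Its rank percentile was 97.8 and 97.7, 94.7 and 93.6, and 86.4 and 92.6. Both SPT5 values were below all 4 NELF values, for the fold and for the percentile. How often this held over all start sites was not counted. The called peaks at Pcdhga7 were those of the first NELFB:HA library (q = 1.12e-05) and the first NELFE library (q = 0.00624).

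Pcdhga1, the first gene of the gamma array, was called in 3 libraries. Its fold was 2.57 and 2.01 in NELFB:HA, 3.58 and 3.95 in NELFE and 1.83 and 1.72 in SPT5. By fold the NELFE values were the highest and the SPT5 values the lowest, without overlap between the antibodies. By rank percentile NELFB:HA (97.0 and 93.6) and NELFE (95.8 and 96.1) overlapped, with SPT5 lower at 87.0 and 66.1. The same order of folds held over Diaph1, next to the array, at 6.44 and 3.79, 8.76 and 8.86, and 2.76 and 2.52. How often this order held over all start sites was not counted. The q-values at Pcdhga1 were 0.00997 and 0.287, 6.31e-06 and 3.63e-06, and 0.439 and 0.738.

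At Pcdhgc3 the fold was 2.18 and 1.86 in NELFB:HA, 2.59 and 1.97 in NELFE and 1.81 and 1.73 in SPT5, with rank percentiles from 87.4 to 95.7. Only the first NELFE library called it (q = 0.00126). At Pcdhga8 the fold was 2.49 and 1.73, 1.77 and 2.03, and 2.11 and 1.73, and the rank percentile ranged from 66.8 to 97.2. Pcdhga8 was called in the first NELFB:HA library alone (q = 0.00356), and its 3 antibodies overlapped.

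At Pcdhga12, the last A-type gene, the strongest peaks lay at or past the start. The start had a peak in 4 libraries, with folds of 2.23 in the second NELFB:HA, 2.68 in the second NELFE and 1.88 and 1.77 in the SPT5 libraries. In the first NELFB:HA and the first NELFE library the peak began over 500 bp past the start at 37765580, at 37767744 and 37767947, with folds of 2.39 and 3.90. The latter (chr18:37767947-37768591, q = 2.26e-08) was the strongest gamma peak of its library.

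The other C-type genes had a start peak in fewer libraries than Pcdhgc3, and with a wider range of strength. Pcdhgc4 and Pcdhgc5 each had a peak at the start in 4 libraries, with percentiles from 11.2 to 72.2 and from 7.40 to 96.4. In the alpha array, the C-type genes Pcdhac1 and Pcdhac2 had a peak in 1 and 3 libraries. The peak of Pcdhac1 was in the first SPT5 library at percentile 45.5, and those of Pcdhac2 were at 9.03, 7.86 and 93.8 in the first libraries of NELFB:HA, NELFE and SPT5. In that SPT5 library Pcdhgc5 (96.4) and Pcdhac2 (93.8) ranked above Pcdhgc3 (90.3).

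Among the remaining gamma genes, 15 had a peak in both replicates of at least 1 antibody, which with the 4 genes above makes 19 of 22. Of all start sites off chromosome 18, 55.6% met this criterion. These 15 were Pcdhga2, Pcdhga3, Pcdhgb1, Pcdhga4, Pcdhgb2, Pcdhga5, Pcdhga6, Pcdhgb5, Pcdhgb6, Pcdhga10, Pcdhgb7, Pcdhga11, Pcdhga12, Pcdhgc4 and Pcdhgc5. The strongest by mean percentile, with a library without a peak counted as 0, were Pcdhga10 at 69.2, Pcdhga2 at 63.98 and Pcdhga12 at 63.0. Pcdhga9 and the pseudogene Pcdhgb8 had peaks in 2 libraries each, and Pcdhgb4 in none. Pcdhgb2 and Pcdhga5 met the criterion with a shared peak of 6109 bp in the second NELFB:HA library.

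In the alpha array 6 of 14 genes met that criterion: Pcdha2, Pcdha4, Pcdha6, Pcdha7, Pcdha9 and Pcdha10. Of these, Pcdha2 met it for NELFB:HA and SPT5 and the other 5 for 1 antibody. Pcdha2 had folds of 1.96 and 1.75 in NELFB:HA and 1.90 and 1.65 in SPT5, with no peak in either NELFE library. Pcdha7 had folds of 1.66 and 1.95 in NELFB:HA, 1.92 in the second NELFE and 1.69 in the first SPT5 library. No alpha start had a fold above 2.22, the value of Pcdha11 in the first NELFE library.

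In the beta array 9 of 22 genes met it, each for 1 antibody: Pcdhb10, Pcdhb13, Pcdhb15, Pcdhb17 and Pcdhb18 for NELFB:HA, Pcdhb3 for NELFE, and Pcdhb4, Pcdhb7 and Pcdhb22 for SPT5. The highest fold at a beta start was 2.47, at Pcdhb22 in the first SPT5 library, where the second SPT5 library had 1.90. Pcdhb22 had no peak in the first NELFB:HA library or in either NELFE library. Pcdhb1, the first gene of the array, had no peak at its start in any library. The gene starts with a peak in at least 3 libraries numbered 10 of 14 in alpha, 10 of 22 in beta and 19 of 22 in gamma, beside 56% of all start sites.

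Peaks covered the 500 bp on each side of gene starts more than the rest of each array, a comparison chosen after seeing the data. In gamma the starts were covered to 45.1% and the rest to 25.7%, a difference of 19.4 ± 5.56 percentage points (SD, n = 6). In alpha the values were 25.8% and 12.2%, a difference of 13.6 ± 6.74, and in beta 17.7% and 12.8%, a difference of 4.86 ± 3.28. All 3 differences were above 0 in 6 of 6 libraries (exact two-sided sign-flip permutation test, adjusted p = 0.031). In the 100000 strongest peaks of each list they were smaller, at 11.4, 6.22 and 2.11 points, and none passed the exact permutation test (adjusted p = 0.0938, 0.0938 and 0.438).

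Merging overlapping peaks of the 6 lists gave 97 sites in alpha, 113 in beta and 55 in gamma. In the gamma array 14 of 55 sites (25.5%) had a peak in all 6 libraries, against 2 of 97 (2.06%) in alpha and 4 of 113 (3.54%) in beta. Over the whole genome 3.59% of 816416 merged sites did. Sites in 1 library only made up 36.4% in gamma, 51.5% in alpha, 54.0% in beta and 52.8% in the genome. Of the 14 gamma sites present in all libraries, 12 contained a gene start, and together they spanned 90.4 kb with a median length of 6579 bp, so a site can hold peaks that do not overlap each other directly.

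The second gamma site, chr18:37818036-37830254, shows this. Its called peaks, in both NELFE libraries (folds 2.85 and 2.58), and the SPT5 peaks (2.25 and 2.42) began between 37824410 and 37824840, past the start of Pcdhgc5 and just before the annotated lncRNA Gm29994 (37827111 to 37830230). The strongest NELFB:HA peaks of that site lay elsewhere in it, at 37828763 (fold 1.87) and 37821631 (2.23). The peak near 37824837 was the strongest gamma peak of both SPT5 libraries, at ranks 14321 and 9196.

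The sites shared by all 6 libraries in alpha and beta, beside the strong beta site, were weak. In alpha they were a merged site that contains the Pcdha2 start (chr18:36936524-36941571, mean percentile 61.9) and chr18:37165732-37171362 (29.4), 22054 bp past the Pcdhac2 start. In beta they were a site containing the Pcdhb3 start (62.0), a site containing the Pcdhb17 start (48.6) and a site 5278 bp from the Pcdhb14 start (58.7). A peak within 500 bp of the start itself was present in 4 libraries at Pcdha2, 3 at Pcdhb3 and 4 at Pcdhb17. Folds at these 5 sites ran from 1.49 to 2.35.

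Read along the chromosome, coverage from the alpha array to the end of the beta array was near the 12.4% of all chromosomes. It rose before the gamma array. Mean covered length was 13.8% from Pcdha1 to Pcdhac1, 11.4% from Pcdhac1 to the end of the alpha array and 9.77% in the gap between alpha and beta. It was 14.2% from Pcdhb1 to Pcdhb22 and 10.2% in the rest of the beta array past Pcdhb22. After the beta array it was 22.6% in the 59.999 kb gap that holds Slc25a2 and Taf7, a gene of the general transcription factor TFIID. It was 26.1% from Pcdhga1 to the Pcdhgc3 start and 35.6% from there to the end of the gamma genes. Coverage in the latter segment was higher in 6 of 6 libraries, by 9.497 ± 2.95 percentage points. The exact two-sided sign-flip permutation test gave p = 0.031, the smallest possible, for this comparison, which was chosen after seeing the data. Besides the C-type starts, the latter segment holds the constant exons and Gm29994, so the C-type genes cannot be told apart from these. Past the gene end the values scattered, from 2.41% to 52.1% over 8.13 kb. In the 100 kb downstream of the gamma array, which holds most of Diaph1, the covered share was 27.5% ± 8.93 (SD, n = 6), about that of the gamma array, so this level was not confined to the protocadherin genes.

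**Figure D5:**
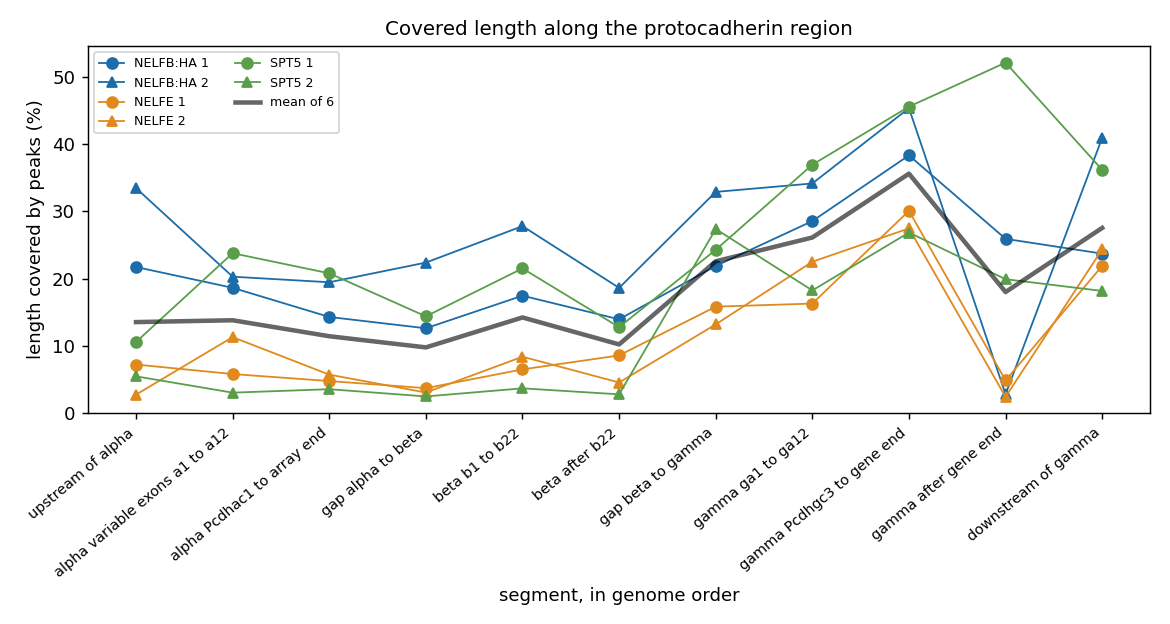
Percent of length covered by peaks in 11 successive segments of the protocadherin region, in genome order; thin lines are the 6 libraries and the thick grey line their mean. All libraries rise from the segment past Pcdhb22 to the segment from Pcdhgc3 to the gamma gene end, and the second SPT5 library dips on the way.

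The antibodies could not be separated within an array. With 2 libraries against 2, the exact two-sided permutation test cannot go below p = 0.33, and no test of 18 did better (adjusted p = 0.667 to 1). The ratio of gamma density to the genome was 1.59 in NELFB:HA, 2.66 in NELFE and 2.23 in SPT5 on average, the SPT5 libraries being far apart at 1.39 and 3.06. Differences between antibodies that are described for single genes above have no test of their own.

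Several genes next to the arrays, taken over the gene body and 500 bp on each side because the annotation table gives no strand, were compared with the arrays by the rank of their strongest peak. Taf7, which starts and ends within the beta to gamma gap, 17.6 kb before Pcdhga1, had called peaks in all 6 libraries at ranks 1537 and 2329, 1201 and 2601, and 163 and 275. Its fold was 6.67 and 4.05, 8.28 and 5.80, and 5.34 and 4.25. Hars and Zmat2 before the alpha array, and Diaph1 and Hdac3 at or past the end of the gamma array, were called in all 6 libraries as well. The annotated body of Diaph1 runs from 37843601, inside the gamma limits, to 37935622, so some gamma peaks lie over Diaph1. Taf7, Hars and Zmat2 ranked ahead of the strong beta site in all 6 libraries. Diaph1 ranked behind the strong beta site in the second SPT5 library, at 3938 against 2707, and ahead of it in the other 5. Hdac3 ranked behind the site in 4 libraries, at 10223 in the first NELFB:HA, 6620 and 8146 in NELFE and 7679 in the second SPT5 library. In the second NELFB:HA and the first SPT5 library its strongest peak was the one counted for Diaph1, at rank 2617 in both lists. There 1 peak stood for both genes. Slc25a2, by contrast, had no called peak in any library. Called peaks of all 3 antibodies thus occurred on both sides of the arrays and between them.

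Of 16 known regulators of the arrays, 11 were matched to a start site, all 11 had a peak in all 6 libraries, and 9 were called in all 6: Ctcf, Smc1a, Smc3, Stag1, Wapl, Smchd1, Setdb1, Trim28 and Zfp143. Of all start sites, 35.5% had a peak and 20.3% a called peak in all 6 libraries, and 35.4% had a called peak in any. Ctcf, which encodes the insulator protein CTCF, had folds from 4.21 to 9.42 and Smchd1, a silencer of the arrays, from 3.11 to 8.41. Dnmt3a and Dnmt3b, the de novo DNA methyltransferases, were called in 3 and 4 libraries. Of 12 protocadherins outside the arrays, 9 were matched, and 2 were called in any library: Pcdh17 in 5 libraries (folds 2.54 to 7.08) and Pcdh8 in 3 (1.79 to 4.93). The other 7 were called in none.

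The labelled cell type was checked on marker starts. Of 7 matched stem cell markers, Pou5f1, Sox2, Zfp42, Klf4 and Tdgf1 were called in all 6 libraries, Nanog in 2 and Esrrb in none. Of 7 matched neural markers, the neuronal gene Syn1 was called in all 6 libraries (folds 2.93 to 4.34), Tubb3 in 1 and the other 5 in none. The part of neural cells in the peaks on the protocadherin arrays was not tested.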

How the data were processed

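ChIP-seq of NELFB:HA, NELFE and SPT5 was analysed from 6 control libraries, grouped and numbered by their titles; in the file headers the 4 NELF lists carry other replicate numbers. Bowtie2, MACS2, deepTools and the builds mm10 and hg38 stand in the submitters' processing notes; read filters are not given in the sources used here. Peaks were called with MACS2 2.1.1.20160309 in each library against input without pooling, with p 0.01 for strong and 0.1 for weak regions and 1 tag per position, per the file headers. The deposited pileup signal is scaled coverage and was not compared between libraries. The deposited fold enrichment is a ratio to the input background. The authors give each peak's mean −log10 p-value, and likewise a −log10 q-value; the headers say that q is not calculated, yet the column holds values, which were used as the authors' q-values.

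Ranks, densities and covered length were computed with Python 3.11.15, pandas 2.3.3 and numpy 2.4.6 on chromosomes 1 to 19, X and Y. Gene starts came from RefSeq on GRCm38.p6, the build of mm10; starts of other genes exclude chromosome 18. Libraries are the units of exact permutation tests with Benjamini-Hochberg adjustment, which were checked on small cases with known answers. Density ratios and the gamma median percentile were checked on simulated lists. Error rates of the tests were not simulated. Named sites were the 5 per array with the most libraries, then the highest mean percentile; named genes were those with a start peak in both replicates of an antibody, the C-type genes, and listed genes called in all 6 libraries. The unlisted neighbours, Pcdha11 and other single values were chosen after their values were seen. Members and lists were chosen with earlier results of these data known. Alternatives covered the background, the array limits, the overlap, stronger peaks, the ranking, the q threshold, the window and each replicate left out. Intervals for counting error are not given, as peaks are not reads.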

Additional observations from a re-analysis of the deposited data

Results flagged for a closer look

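The difference between arrays in median rank percentile ran in opposite directions in different antibodies, with every library of one antibody on one side and every library of the other antibody on the opposite side. Alpha minus gamma was -24.42 on average in NELFB:HA and -31.15 in SPT5, but 7.788 in NELFE. Beta minus gamma was -21.68 in NELFB:HA and -20 in SPT5, but 8.45 in NELFE. The log2 density ratio of alpha minus beta was -0.1339 in NELFE and 0.1966 in SPT5. Each mean is over 2 libraries, and these differences between antibodies were not tested. The NELFE lists were shorter than both NELFB:HA lists and longer than 1 of the SPT5 lists; the part of list length in these differences was not tested.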

How the results depend on the processing

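Over 48 results and 318 alternatives, 233 kept their side of the threshold or, without a test, moved by less than the spread between replicates; 3 of these changed sign, all with replicate 1 left out: the density ratios of alpha and beta NELFB:HA minus NELFE (-0.0289 and 0.000554) and gamma NELFE minus SPT5 (-0.358). For density against all chromosomes, alpha went to -0.0512 in the stronger 50% of each list, passed the threshold at 0.18 with limits widened by 10 kb, and was -0.53 against the flanks. Beta went to -0.53 against the flanks and to 0.23 in the 100000 strongest peaks, where it lost the call; with 1 replicate left out it ranged from 0.11 to 0.18. Gamma lost the call at 1.51 in the 100000 strongest peaks and at 0.35 against the flanks, and ranged from 0.94 to 1.11 with a replicate left out, where 3 libraries cannot pass the test. The cause of the other changes was not tested.

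Alpha minus beta changed sign in peaks per Mb, to 0.73 with widened limits, and ranged from -14.2 to 10.9 with a replicate left out. It ranged from -1.34 to 0.81 points in covered length and from -10.9 to 1.22 in median percentile.

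In the 100000 strongest peaks, covered length was 3.22% in alpha, 3.82% in beta and 15.9% in gamma, the sites in all 6 libraries numbered 0, 1 and 6, and start peaks lay at 17.9%, 13.6% and 37.1% of genes. Among called peaks the start shares were 0, 0 and 6.06%. With the q-value threshold set to 0.001, gamma had 4 peaks. Merging at 100 bp left 2 beta sites. With a replicate left out, called peaks numbered 3 in beta and 4 to 8 in gamma, and the sites in every remaining library numbered 4 to 5 in alpha and 4 to 9 in beta. Coverage at starts minus elsewhere was 6.22, 2.11 and 11.4 points in the 100000 strongest peaks, and 11.1 to 16.1, 4.42 to 5.30 and 18.1 to 20.7 with a replicate left out, all short of the threshold.

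Differences between antibodies in the density ratio changed sign in the stronger 50% for alpha NELFB:HA minus NELFE (-0.261), NELFB:HA minus SPT5 (0.247) and NELFE minus SPT5 (0.508), and for gamma NELFE minus SPT5 (-0.504). In the 100000 strongest they did so at -0.393 for alpha NELFB:HA minus NELFE, at 0.342 for alpha NELFE minus SPT5 and at -0.495 for gamma NELFE minus SPT5. With widened limits the beta values were 0.0345 for NELFB:HA minus NELFE and -0.00171 for NELFE minus SPT5. With a replicate left out, alpha ranged from -0.0289 to 0.112 (NELFB:HA minus NELFE), -0.253 to -0.0409 (NELFB:HA minus SPT5) and -0.224 to -0.153 (NELFE minus SPT5), beta from -0.0314 to 0.161 and -0.0269 to 0.161. Gamma ranged from -1.49 to -0.654 (NELFB:HA minus NELFE), -1.84 to 0.560 (NELFB:HA minus SPT5) and -0.358 to 1.21 (NELFE minus SPT5).

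In median percentile the sign changed in the stronger 50% at 5.93, -3.57 and -9.50 for the 3 alpha pairs, at 3.25 for beta NELFB:HA minus SPT5, and at 20.2 and 13.8 for gamma NELFB:HA and NELFE minus SPT5. In the 100000 strongest it did so at 21.2 and -11.3 for alpha NELFB:HA minus NELFE and NELFE minus SPT5, and at -7.23 and 6.71 for the same gamma pairs. Gamma NELFB:HA minus SPT5 was 2.76 by midpoint and 3.88 ranked by fold. Leaving out a replicate gave -8.21 to 4.45 and 7.57 to 10.1 for beta, and -7.06 to 6.66 and -29.3 to -9.87 for gamma, for NELFB:HA and NELFE minus SPT5.

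With a replicate block the gamma density ratio of NELFB:HA minus NELFE kept its value of -1.07 with an adjusted p of 0.9 by the exact permutation test, and no block changed a call, since 2 pairs cannot go below 0.5. Same-numbered libraries did not deviate together over 242416 tiles of 10 kb, with r of 0.000820 between NELFB:HA and NELFE, -0.0804 between NELFB:HA and SPT5 and 0.0110 between NELFE and SPT5. The lists are lenient and the file headers number the NELF lists otherwise. The check therefore cannot tell whether same-numbered libraries share a culture or batch. This check, the block and the replicates left out rest on the numbers in the titles. The lists end at a lenient threshold, with a median fold of 1.64 to 1.87, and list length did not follow depth, so a peak missing from a list does not show that the site was unbound. The part of depth in missing peaks was not tested.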
